A study of Mus musculus with 15 samples.

Results

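The chemokine system measured here comprised 50 genes, 33 ligands and 17 receptors, of 22180 genes with a named value on the array. Members were all genes whose symbol starts with Ccl, Cxcl, Ccr or Cxcr followed by a digit, together with Cx3cl1 and Xcr1, where the array's annotation gave the probe set a single gene symbol. Chemokine genes whose probe sets share several symbols were left out. Kidneys came from a mouse model of Xp11.2 translocation renal cell carcinoma. All 15 mice carried a Rosa26-LSL-PRCC-TFE3 knock-in, in which a stop cassette flanked by loxP sites holds back a fusion of PRCC with the transcription factor TFE3. Cre+ mice also carried KSP-Cre, where the promoter of the tubule gene Cdh16 (Ksp-cadherin) drives the recombinase, and Cre- mice did not. The groups were Cre- at 4 months (n = 4), Cre+ at 4 months (n = 4), Cre- at 7 months (n = 3) and Cre+ at 7 months (n = 4), with 1 kidney RNA sample on each Affymetrix Mouse Gene 2.0 ST array. KSP-Cre was never present without the PRCC-TFE3 allele, so what the recombinase does by itself and what the fusion does cannot be told apart.

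Chemokines are small secreted proteins that direct leukocyte movement through G protein-coupled receptors on the responding cells. CC ligands act mainly on monocytes, macrophages, dendritic cells and lymphocytes. Among the CXC ligands, those with an ELR motif attract neutrophils, those induced by interferon attract activated T and NK cells, and Cxcl13 and Cxcl12 organise lymphoid tissue and the homing of progenitor cells. Ligands are released by tubule, endothelial and stromal cells as well as by leukocytes, and the receptors are carried mostly by leukocytes. A whole-kidney sample mixes all of these, and fewer or more cells of a type cannot be told apart from less or more RNA per cell.

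The tissue carried its defining markers: all 7 kidney tubule markers, Cdh16, Umod, Slc12a1, Slc34a1, Lrp2, Slc12a3 and Aqp2, had group means above 4 on the log2 scale of the array, where a group mean under 4 is called dim here. Cdh16 itself had group means of 9.74, 9.58, 9.87 and 9.44 in the order Cre- 4 months, Cre+ 4 months, Cre- 7 months, Cre+ 7 months, and fell by 0.43 (SE 0.131, adjusted p = 0.026) with Cre at 7 months. Array medians lay between 4.40 and 4.55. The Y-linked genes separated 8 arrays with high values from 7 with low values, split 2 and 2, 2 and 2, 2 and 1, and 2 and 2 over the groups in that order. Sex is not among the labels, and changes are also given within the high and within the low arrays where this moves a value by over 1.5 times. Replicate 1 of the Cre+ group at 4 months gave the lowest value of that group for 15 of the 22 members that rose at 7 months.

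At 7 months the chemokine system was higher in Cre+ kidneys: 22 of 50 members (44%) passed the test as higher and none as lower, against 11.7% of all genes higher and 10.8% lower. These calls rest on a linear model with 4 group means fitted with limma to all genes, with Benjamini-Hochberg adjusted p under 0.05 over 22180 genes. The 22 were 15 of 33 ligands and 7 of 17 receptors, and 11 of them changed by 2-fold or more. The median log2 change of the members was 0.32, beside -0.04 over all genes, and 37 of 50 changes were positive. Between the groups, 22 members (44%) had every Cre+ value above every Cre- value, against 14% of all genes, and 18 of these were among the 22 called. The other 4 called members, Ccl2, Ccl7, Ccl22 and Ccr6, overlapped between the groups, and each lost its call in some alternative fit or without some array. The member whose 7-month Cre+ values were all below the controls was Ccl24, an eosinophil-attracting ligand that is dim here, and it did not pass the test (-0.29, SE 0.135, adjusted p = 0.15).

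At 4 months fewer members were called, with 6 members higher (12%), Ccl5, Ccl9, Cxcl9, Cxcl10, Cxcl16 and Ccr2, and none lower, against 2.73% of all genes higher and 0.803% lower. The Cre effect was tested as larger at 7 months for 2 of 50 members (4%), against 0.96% of all genes. The median difference of effects was 0.09 over the members and -0.08 over all genes. With arrays centred on their medians, the calls over all genes were 497 higher and 511 lower in place of 606 and 178, while 4 members were called higher and none lower. All 6 were also called at 7 months. The median member change was 0.20, beside 0.05 over all genes, 40 of 50 changes were positive, and 9 members (18%) had every Cre+ value above every Cre- value, against 6.31% of all genes. The count depended on single arrays: it was 3, 3, 3 and 2 without Cre- replicate 1, 2, 3 and 4, and 10, 1, 3 and 2 without Cre+ replicate 1, 2, 3 and 4. Cxcl16 was the member that kept its 4-month call in every alternative tried and without each array.

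**Figure D1:**
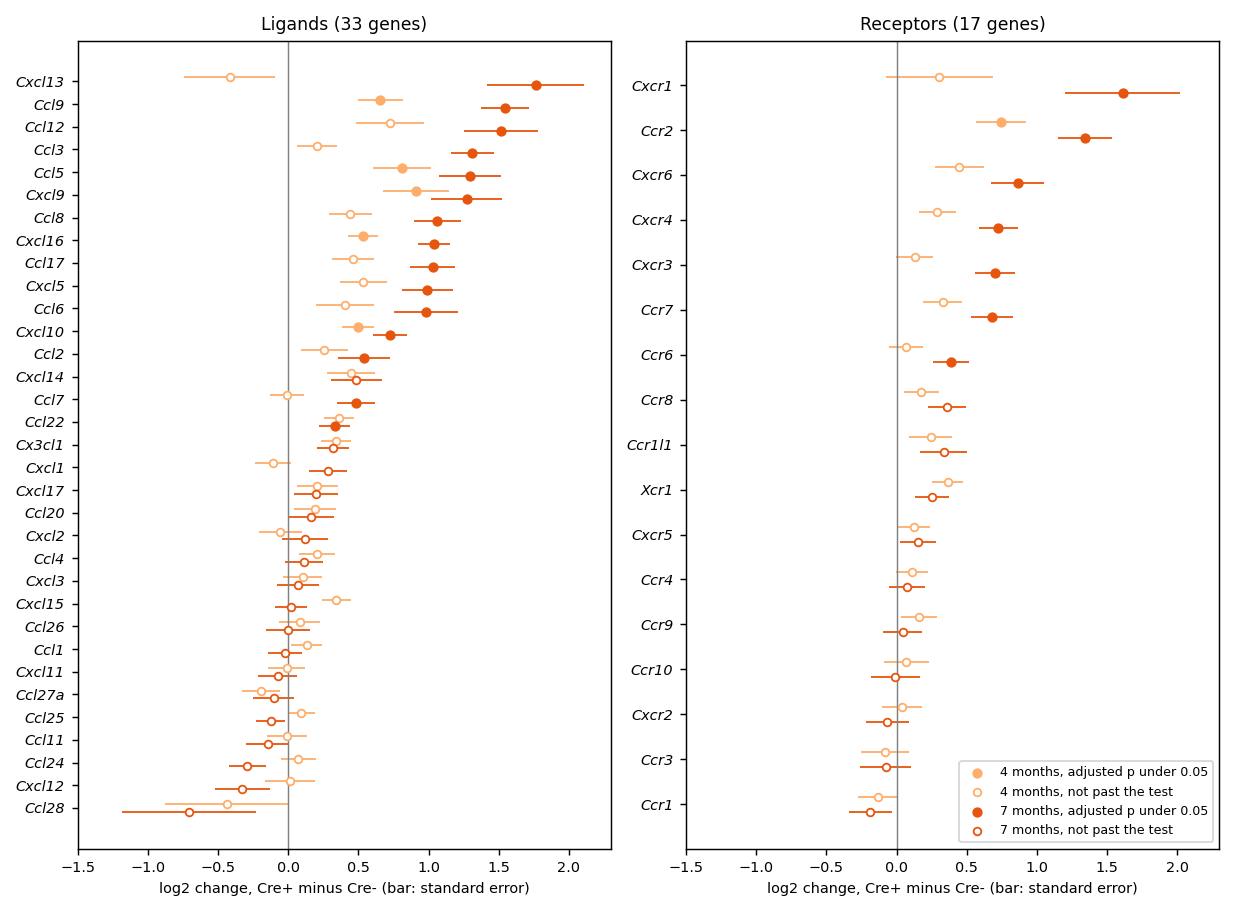
Log2 change between Cre+ and Cre- kidneys (x axis) for each of 33 ligands (left) and 17 receptors (right), ordered by the 7-month change; pale points are 4 months, dark points 7 months, bars are standard errors and filled points passed the test. The filled points, 6 at 4 months and 22 at 7 months, all lie above 0, from 0.33 for Ccl22 to 1.76 for Cxcl13 at 7 months.

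Ccr2, the receptor that draws inflammatory monocytes out of the blood into tissue, was called higher at both ages, and its ligands Ccl2, Ccl7 and Ccl12 at 7 months but not at 4 months. Ccr2 read 5.18, 5.09, 5.37 and 4.63 in Cre- kidneys at 4 months and 5.58, 6.05, 5.58 and 6.03 in Cre+ kidneys of that age. At 7 months Ccr2 read 4.85, 5.59 and 5.43 in Cre- and 6.75, 6.49, 6.55 and 6.74 in Cre+ kidneys. Every Cre+ value lay above every control of the same age. The log2 change was 0.75 (SE 0.177, 1.68-fold, adjusted p = 0.025) at 4 months and 1.34 (SE 0.192, 2.54-fold, adjusted p = 6.2e-05) at 7 months.

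Ccl12, a mouse monocyte attractant and Ccr2 ligand, was 3.75, 3.43, 3.37 and 3.07 in Cre- and 3.67, 4.07, 4.19 and 4.60 in Cre+ kidneys at 4 months. By 7 months it was 2.99, 3.39 and 3.86 in Cre- and 5.64, 4.72, 4.50 and 4.86 in Cre+ kidneys. The 7-month groups stood apart, with the Cre+ replicate 1 array highest, while the 4-month groups overlapped. Ccl12 changed by 1.51 (SE 0.263, 2.86-fold, adjusted p = 0.00039) at 7 months, and its 4-month difference of 0.72 (SE 0.244, adjusted p = 0.13) did not pass the test. Ccl2, the classical monocyte chemoattractant, had group means of 3.43, 3.69, 3.67 and 4.21 and changed by 0.54 (SE 0.183, adjusted p = 0.043) at 7 months. Its Cre+ replicate 3 array at that age read 3.72, inside the control range, and the call was lost without any one of 6 of the 7 arrays. Ccl7, which acts on Ccr2 and Ccr1, changed by 0.48 (SE 0.132, adjusted p = 0.013) at 7 months, but its Cre+ mean of 4.93 lay close to the 4-month means of 4.85 and 4.84. The lower value was that of the 7-month controls, 4.45, and the difference was 0.74 within the arrays of low Y-linked value.

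Ccl8, which in the mouse acts on Ccr8, a receptor of T helper type 2 cells, was also called higher at 7 months. It read 3.77, 3.95, 3.36 and 3.44 in Cre- and 4.11, 4.02, 4.08 and 4.07 in Cre+ kidneys at 4 months. The 7-month values were 3.87, 3.51 and 3.81 in Cre- and 4.51, 4.55, 5.15 and 4.95 in Cre+ kidneys. Values stood apart at both ages, and the change passed the test at 7 months (1.06, SE 0.166, 2.09-fold, adjusted p = 0.00015) but not at 4 months (0.44, SE 0.153, adjusted p = 0.14). In the RefSeq gene order, Ccl2, Ccl7, Ccl11, Ccl12, Ccl8 and Ccl1 lie next to each other, and 4 of these 6 rose at 7 months. The share called higher was 44% over all members and 11.7% over all genes. Whether calls gather in gene clusters was not tested. The other members of the cluster, Ccl11, an eosinophil attractant, and Ccl1, the other Ccr8 ligand, did not pass the test. Their differences were -0.15 for Ccl11 (SE 0.153, adjusted p = 0.56) and -0.02 for Ccl1 (SE 0.121, adjusted p = 0.93).

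Macrophage and monocyte markers moved with these genes. All 10 markers measured rose at 7 months and 4 at 4 months, with medians of 1.56 and 0.59. Over all genes 11.7% and 2.73% were called higher at these ages. The list includes Cx3cr1, itself a chemokine receptor outside the member rule. The log2 of their summed linear level was 9.61 to 10.29 in Cre- and 10.89 to 11.52 in Cre+ kidneys at 4 months, and 9.73 to 10.08 and 12.25 to 12.54 at 7 months. Cd68, a lysosomal protein of macrophages, rose by 5.13 and carried much of that sum. Without Cd68 the other 9 gave 9.48 to 10.14 and 10.11 to 10.47 at 4 months, which overlap, and 9.60 to 9.95 and 11.05 to 11.39 at 7 months. The part of these cells in the chemokine changes was not tested.

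The second CC cluster, Ccl5, Ccl9, Ccl6, Ccl3 and Ccl4 in gene order, includes ligands of Ccr1, a receptor of monocytes and neutrophils. Of its 5 genes 4 rose at 7 months, beside 44% of all members and 11.7% of all genes. Ccl9, a mouse macrophage inflammatory protein, read 5.32, 5.67, 5.44 and 5.32 in Cre- and 5.67, 6.28, 6.23 and 6.20 in Cre+ kidneys at 4 months. At 7 months it read 5.30, 5.54 and 5.83 in Cre- and 6.94, 7.42, 6.82 and 7.22 in Cre+ kidneys. Only Cre+ replicate 1 at 4 months met the control range. Ccl9 changed by 0.66 (SE 0.161, 1.58-fold, adjusted p = 0.031) at 4 months and by 1.54 (SE 0.174, 2.92-fold, adjusted p = 6.4e-06) at 7 months. Ccl6, its close relative, had group means of 4.33, 4.73, 4.20 and 5.18 and changed by 0.98 (SE 0.225, 1.97-fold, adjusted p = 0.0038) at 7 months.

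Ccl5 (RANTES), which recruits T cells and monocytes, read 5.87, 5.52, 6.02 and 5.58 in Cre- and 6.07, 6.99, 6.74 and 6.44 in Cre+ kidneys at 4 months. At 7 months the values were 5.50, 5.66 and 5.98 in Cre- and 6.65, 6.86, 6.96 and 7.58 in Cre+ kidneys. No Cre+ value reached down to a control of its age, though replicate 1 at 4 months exceeded the highest control only narrowly. The changes were 0.81 (SE 0.205, 1.76-fold, adjusted p = 0.036) and 1.30 (SE 0.222, 2.46-fold, adjusted p = 0.00035).

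Ccl3 (MIP-1 alpha), released by activated macrophages, read 4.27, 4.19, 4.08 and 4.03 in Cre- and 3.95, 4.31, 4.74 and 4.38 in Cre+ kidneys at 4 months, with overlap and a difference of 0.21 (SE 0.142, adjusted p = 0.52). At 7 months it read 4.03, 4.16 and 4.06 in Cre- and 5.71, 5.27, 5.31 and 5.29 in Cre+ kidneys, a change of 1.31 (SE 0.153, 2.48-fold, adjusted p = 9e-06). The Cre effect was larger at 7 than at 4 months by 1.10 (SE 0.209, adjusted p = 0.011, as an interaction in the same limma fit), against 0.96% of all genes with a larger effect at 7 months. Ccl4 (MIP-1 beta), the neighbouring gene whose RefSeq span overlaps that of Ccl3, had group means of 5.04, 5.25, 5.19 and 5.30 and a 7-month difference of 0.12 (SE 0.136, adjusted p = 0.62). Ccr1 was dim, with means of 3.93, 3.80, 3.85 and 3.67, and its difference at 7 months was -0.19 (SE 0.154, adjusted p = 0.44).

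Ccl17 and Ccl22, dendritic cell and macrophage products that attract regulatory and type 2 T cells through Ccr4, both rose at 7 months. Ccl17 read 3.71, 3.61, 3.97 and 3.67 in Cre- and 3.88, 4.09, 4.59 and 4.26 in Cre+ kidneys at 4 months, and 3.75, 3.64 and 4.15 against 4.83, 4.80, 4.81 and 5.06 at 7 months. Its groups overlapped at 4 months (0.46, SE 0.147, adjusted p = 0.10) and stood apart at 7 months (1.03, SE 0.159, 2.04-fold, adjusted p = 0.00013). Ccl22 differed by 0.36 (SE 0.105, adjusted p = 0.072) at 4 months. Its 7-month change of 0.33 (SE 0.113, 1.26-fold, adjusted p = 0.045) was the smallest that passed, and that call was lost without any one of 5 of the 7 arrays. Ccr4 was dim, with means from 3.38 to 3.59. Ccr7, which guides mature dendritic cells and naive T cells to lymph nodes, had means of 4.99, 5.32, 4.90 and 5.58 and changed by 0.68 (SE 0.150, adjusted p = 0.0029) at 7 months. Its ligands Ccl19 and Ccl21a were not analysed here. Of 4 dendritic cell markers measured, 2 rose at 7 months, Itgax 2.83-fold and Flt3 1.82-fold. Xcr1, the receptor of cross-presenting dendritic cells, is a member and was not counted among those 4 markers. It had a 7-month difference of 0.25 (SE 0.122, adjusted p = 0.16).

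The interferon-inducible CXC ligands of Cxcr3 rose at both ages for 2 of 3 genes. Cxcl9 read 4.44, 4.05, 4.04 and 4.12 in Cre- and 4.85, 5.61, 4.69 and 5.17 in Cre+ kidneys at 4 months. Values at 7 months were 4.99, 4.87 and 4.45 in Cre- and 5.75, 6.50, 5.43 and 6.49 in Cre+ kidneys. Cre+ values stood above the controls of their age throughout, and the changes were 0.91 (SE 0.233, 1.88-fold, adjusted p = 0.039) and 1.27 (SE 0.252, 2.41-fold, adjusted p = 0.0012). Cxcl10 had means of 5.13, 5.63, 5.17 and 5.89, with ranges apart at both ages, and changed by 0.50 (SE 0.112, 1.41-fold, adjusted p = 0.018) and 0.72 (SE 0.121, 1.65-fold, adjusted p = 0.00028). Cxcl11, the third ligand, had means of 4.55, 4.54, 4.50 and 4.43, with differences of -0.01 (SE 0.129) and -0.08 (SE 0.140), adjusted p = 0.98 and 0.76. Cxcr3, the receptor of effector T cells, had means of 4.55, 4.68, 4.49 and 5.19 and changed by 0.70 (SE 0.144, 1.62-fold, adjusted p = 0.0016) at 7 months. Its 4-month difference of 0.13 (SE 0.133, adjusted p = 0.69) missed the threshold, and the difference between the ages did not pass its own test (0.57, SE 0.196, adjusted p = 0.15).

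Promoters of 4 members called at both ages are shown because motifs of the transcription factors known to induce chemokine genes could be searched in them. RefSeq windows of 250 bases before to 50 after the start site (GRCm38.p6) existed for 36 of the 50 members and 16 of the 22 that rose at 7 months. The motifs were GGNNTTTCC, a form of the kappaB site, GAAANNGAA, the core repeat of interferon regulatory factor and ISGF3 sites, and CACGTG, the E-box core bound by TFE3 and its relatives, each sought on both strands. The 250 bases before the start are printed 5′ to 3′ on the strand of the gene, for Cxcl9 at chr5:92328080-92328329, for Cxcl10 at chr5:92348890-92349139 and for Ccl9 at chr11:83578637-83578886, all on the minus strand, and for Ccr2 at chr9:124101933-124102182 on the plus strand. The first 3 windows end at the outer start of the RefSeq gene. The Ccr2 start lies 265 bases inside the gene's RefSeq span, so that its window falls within that span and precedes another of the gene's transcript starts. Of the 36 members, 27 had a window at the outer gene start and 9 did not. Capitals mark the motif matches.
Cxcl9: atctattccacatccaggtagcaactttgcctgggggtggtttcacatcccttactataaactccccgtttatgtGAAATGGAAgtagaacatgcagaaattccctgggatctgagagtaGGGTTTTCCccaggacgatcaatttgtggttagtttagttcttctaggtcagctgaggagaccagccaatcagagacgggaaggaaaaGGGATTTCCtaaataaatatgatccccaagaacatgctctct
Cxcl10: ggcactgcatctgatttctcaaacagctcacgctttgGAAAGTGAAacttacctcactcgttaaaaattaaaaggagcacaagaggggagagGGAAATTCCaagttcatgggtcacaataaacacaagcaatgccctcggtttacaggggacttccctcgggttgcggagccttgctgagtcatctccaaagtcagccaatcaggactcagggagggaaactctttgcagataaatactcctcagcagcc
Ccl9: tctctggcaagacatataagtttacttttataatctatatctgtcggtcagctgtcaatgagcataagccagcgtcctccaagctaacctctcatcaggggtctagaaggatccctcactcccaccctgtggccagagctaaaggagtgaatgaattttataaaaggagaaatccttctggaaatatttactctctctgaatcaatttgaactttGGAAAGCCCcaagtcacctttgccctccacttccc
Ccr2: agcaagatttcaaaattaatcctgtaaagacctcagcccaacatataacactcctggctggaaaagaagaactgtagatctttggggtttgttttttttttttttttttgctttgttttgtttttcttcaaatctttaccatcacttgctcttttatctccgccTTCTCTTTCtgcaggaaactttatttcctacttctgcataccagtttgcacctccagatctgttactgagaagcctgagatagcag
Cxcl10 held GAAAGTGAA at -213 to -205 and GGAAATTCC at -158 to -150, counted from the start site. Cxcl9 held GAAATGGAA at -175 to -167, GGGTTTTCC at -130 to -122 and GGGATTTCC at -42 to -34. Ccl9 held GGAAAGCCC at -35 to -27 and Ccr2 held TTCTCTTTC at -86 to -78. The kappaB letters stood in the windows of 8 members, 3 of them among the 16 that rose (Ccl9, Cxcl9 and Cxcl10), and in 5.82% of all 32851 windows. The other carriers, Ccl20, Ccr3, Cxcl1, Cxcl2 and Cxcl3, were not called against the controls at 7 months. Members are counted as genes, 36 with 40 windows, and the percentages are of windows, so the 2 are not alike. The IRF letters stood in the windows of 7 members, 5 of them among the 16 (Ccl3, Ccr2, Cxcl9, Cxcl10 and Cxcr1), and in 8.56% of all windows. The other carriers, Ccl1 and Cxcl14, were not called. CACGTG stood in the windows of Cxcl3 and Xcr1, neither of which passed a test, and in 7.15% of all windows. A match describes letters in a window and is not a measured binding site.

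Cxcl16 is a membrane-bound chemokine of epithelium and macrophages whose receptor Cxcr6 marks tissue T and NKT cells. Cxcl16 read 7.77, 8.07, 7.69 and 7.83 in Cre- and 8.18, 8.32, 8.57 and 8.43 in Cre+ kidneys at 4 months. In 7-month kidneys it read 7.84, 7.83 and 7.70 in Cre- and 8.88, 8.87, 8.75 and 8.81 in Cre+ kidneys. The groups did not overlap at either age. The change was 0.53 (SE 0.105, 1.45-fold, adjusted p = 0.0065) at 4 months and 1.04 (SE 0.113, 2.05-fold, adjusted p = 4.5e-06) at 7 months. Cxcr6 had means of 3.57, 4.02, 3.45 and 4.31 and ranges apart at both ages, with a difference of 0.45 (SE 0.175, adjusted p = 0.20) and then a change of 0.86 (SE 0.189, 1.82-fold, adjusted p = 0.0026). Adam10, the protease that sheds Cxcl16 and Cx3cl1 from the membrane, rose by 0.70 (SE 0.104, adjusted p = 9e-05) at 7 months.

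Among the neutrophil-attracting members, Cxcl5, an epithelial ELR chemokine, and Cxcr1 rose at 7 months, while Cxcr2, the main neutrophil receptor, read 4.93, 4.97, 4.92 and 4.85 as group means, with a 7-month difference of -0.07 (SE 0.153, adjusted p = 0.82). Cxcl5 read 3.90, 3.53, 3.62 and 3.36 in Cre- and 3.74, 4.08, 4.39 and 4.34 in Cre+ kidneys at 4 months, and 3.58, 3.67 and 4.24 against 4.81, 5.07, 4.72 and 4.68 at 7 months. Its groups overlapped at 4 months (0.54, SE 0.168, adjusted p = 0.10) and stood apart at 7 months (0.99, SE 0.181, 1.99-fold, adjusted p = 0.00063). Cxcl1, Cxcl2 and Cxcl3, the other members paired here with Cxcr2, had 7-month differences of 0.28 (SE 0.135, adjusted p = 0.16), 0.12 (SE 0.163, adjusted p = 0.67) and 0.07 (SE 0.150, adjusted p = 0.81). Cxcr2 ligands outside the member rule are not covered. Cxcl1, Cxcl2 and Cxcl3 lie next to each other with Cxcl15, a lung chemokine that is dim here, and none of the 4 passed the Cre test at either age.

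Cxcr1 read 4.32, 4.39, 4.50 and 4.28 in Cre- and 4.32, 5.03, 4.89 and 4.48 in Cre+ kidneys at 4 months. In 7-month kidneys it read 3.91, 4.19 and 4.83 in Cre- and 4.86, 5.24, 7.39 and 6.20 in Cre+ kidneys. The 7-month ranges did not overlap, but the lowest Cre+ value was 4.86 and the highest control 4.83, and the spread within the Cre+ group (SD 1.13) exceeded that of the other groups. The change was 1.61 (SE 0.410, 3.06-fold, adjusted p = 0.008). The high values, 7.39 and 6.20, came from the arrays with low Y-linked values, and the difference was 2.88 within the low arrays (2 Cre+, 1 Cre-) and 0.54 within the high arrays (2 and 2). Of the neutrophil markers 5 of 6 were dim in every group (S100a8, S100a9, Ly6g, Elane and Retnlg). None rose, Elane, a neutrophil granule protease, fell at 7 months (-0.32, SE 0.107, adjusted p = 0.042), and their summed level was 5.80 to 5.97, 5.89 to 6.09, 5.84 to 6.14 and 5.71 to 5.86 in the 4 groups.

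Cxcl13, the follicular attractant of B cells, had the largest change of all members. It read 6.03, 5.80, 5.03 and 5.68 in Cre- and 4.92, 5.22, 5.33 and 5.40 in Cre+ kidneys at 4 months. At 7 months it read 6.52, 6.59 and 5.55 in Cre- and 7.04, 7.93, 7.98 and 8.98 in Cre+ kidneys. The Cre+ group was not high at 4 months, with a difference of -0.42 (SE 0.321, adjusted p = 0.57), and stood above the controls at 7 months by 1.76 (SE 0.346, 3.39-fold, adjusted p = 0.0011). The effect was larger at 7 than at 4 months by 2.18 (SE 0.472, adjusted p = 0.023). That interaction lost its call without Cre- replicate 2 at 4 months, Cre+ replicate 1 at 4 months or Cre- replicate 3 at 7 months, with adjusted p up to 0.099 over all alternatives. Ccl3 and Cxcl13 were the members (2 of 50) called in the interaction, and the count fell to 1 without either of those 4-month arrays. Cxcr5, the B cell receptor of Cxcl13, had means of 4.98, 5.11, 4.97 and 5.13 and a 7-month difference of 0.15 (SE 0.126, adjusted p = 0.45).

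Lymphocyte markers moved with Cxcl13, Cxcr3 and Ccr7 at 7 months. T cell markers rose for 5 of 6 genes (median 1.17), led by Cd3g at 2.16, and their summed level was 6.97 to 7.14, 7.12 to 7.69, 6.70 to 6.93 and 8.01 to 8.52 in the 4 groups. B cell markers rose for 3 of 5 genes (median 1.33), with Ms4a1 at 1.56 and Cd79a at 1.33, and their summed level was 7.14 to 8.03, 7.59 to 9.15, 7.76 to 8.71 and 8.54 to 10.34, so that the 7-month groups overlapped. NK cell markers were dim for 4 of 5 genes, and none was called at 7 months. At 4 months 1 of the 5 was called higher, beside 2.73% of all genes. Their summed level at that age was 5.71 to 5.92 in Cre- and 5.91 to 6.10 in Cre+ kidneys, which overlap. The part of these cells in the changes was not tested.

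**Figure D2:**
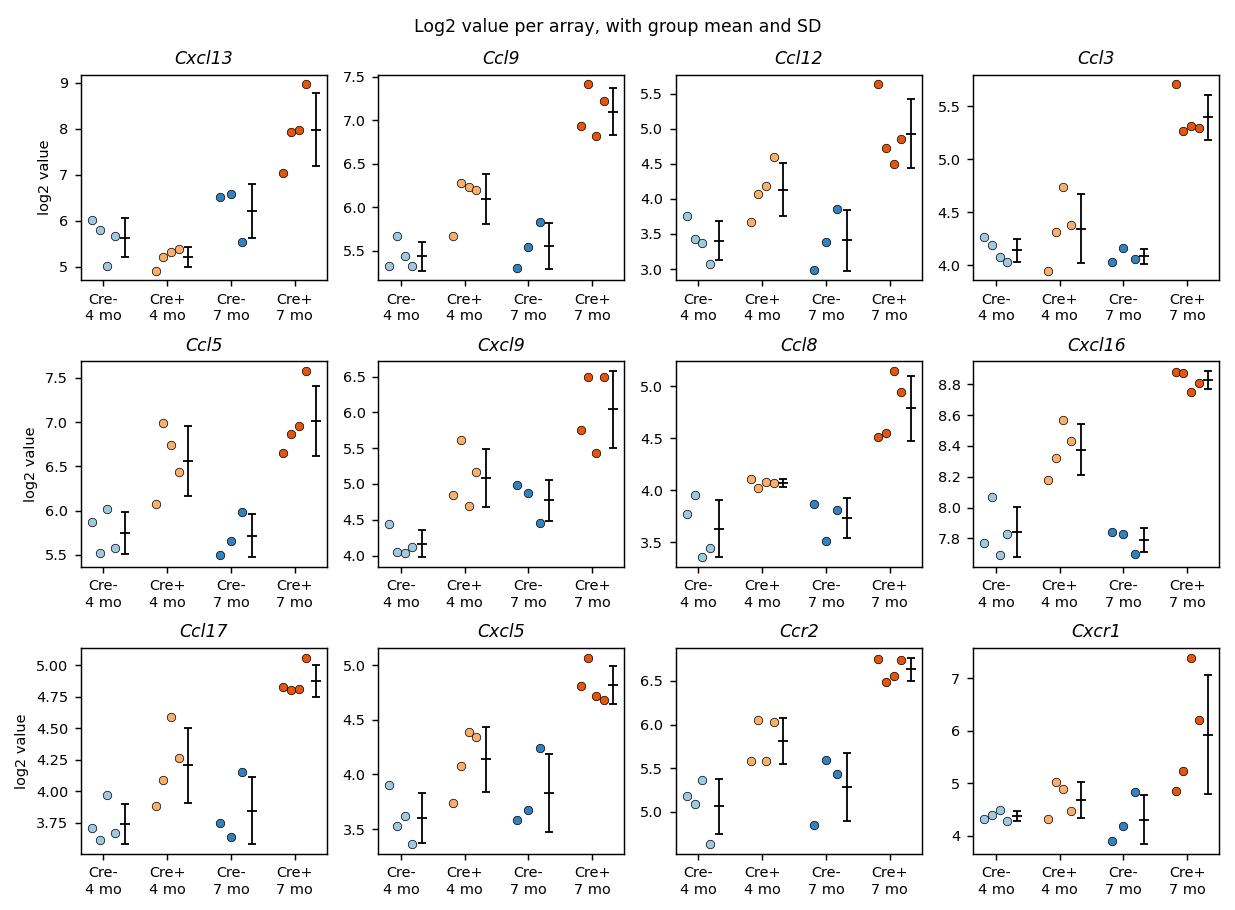
Log2 value on each array (points) for 12 members with the largest called changes, by group on the x axis, with the group mean and SD as a black bar; the y axis differs between panels and does not compare genes. In Cxcl16 the Cre+ groups stand above the controls at both ages (8.18 to 8.57 and 8.75 to 8.88), in Cxcl13 and Ccl3 only the 7-month Cre+ group stands apart, and in Cxcr1 that group spreads from 4.86 to 7.39.

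Cxcl12, a stromal and endothelial chemokine that holds progenitors and leukocytes in tissue through Cxcr4, was called in no comparison. It read 8.46, 8.78, 8.22 and 8.82 in Cre- and 8.76, 8.46, 8.54 and 8.57 in Cre+ kidneys at 4 months, and 8.63, 8.13 and 8.36 against 7.62, 7.84, 8.52 and 8.21 at 7 months. The groups overlapped at both ages, and the 7-month difference was -0.33 (SE 0.193, adjusted p = 0.26). Cxcr4, in contrast, had means of 5.95, 6.24, 5.98 and 6.71 and changed by 0.73 (SE 0.140, 1.65-fold, adjusted p = 0.00099) at 7 months.

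Cx3cl1 (fractalkine), a membrane-bound chemokine of epithelium and endothelium, had means of 6.93, 7.27, 7.16 and 7.48, and its differences of 0.34 (SE 0.106, adjusted p = 0.095) and 0.32 (SE 0.115, adjusted p = 0.055) missed the threshold, although the 7-month ranges were apart. Its receptor Cx3cr1, outside the member rule and a marker of kidney macrophages, changed by 0.71 (SE 0.161, 1.64-fold, adjusted p = 0.0034) at 7 months. Cxcl14, an epithelial chemokine, had differences of 0.45 (SE 0.170, adjusted p = 0.18) and 0.49 (SE 0.183, adjusted p = 0.069). Ccl28, a mucosal epithelial chemokine, ranged widely within each group, from 7.50 to 8.58, 6.71 to 8.31, 8.21 to 9.61 and 7.25 to 9.38, and its 7-month difference of -0.71 (SE 0.475, adjusted p = 0.34) was within that spread. Ccl25, the ligand of Ccr9 in thymus and intestine, had means of 6.22, 6.32, 6.27 and 6.14. Ccl20, the ligand of Ccr6, had means of 4.20, 4.39, 4.08 and 4.24, and Ccr6, a receptor of B cells and type 17 T cells, changed by 0.39 (SE 0.130, 1.31-fold, adjusted p = 0.040) at 7 months although its means, 3.16 to 3.54, were dim. That change was 0.20 within the arrays of high and 0.61 within those of low Y-linked values.

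Set beside each other as ligand and receptor, 34 of 36 textbook pairs had both genes measured. At 4 months both genes were called higher in 0 pairs, the ligand alone in 6, the receptor alone in 3 and neither in 25. At 7 months both were called in 7 pairs: Ccr2 with Ccl2, Ccl7 and Ccl12, Cxcr3 with Cxcl9 and Cxcl10, Cxcl5 with Cxcr1, and Cxcl16 with Cxcr6. The ligand alone was called in 11, among them Ccl3, Ccl5, Ccl6, Ccl7 and Ccl9 with Ccr1, Ccl17 and Ccl22 with Ccr4, Ccl8 with Ccr8 and Cxcl13 with Cxcr5. In 9 of those 11 pairs the receptor was dim. The receptor alone was called in 4, Cxcr4 with Cxcl12, Cxcr3 with Cxcl11, Ccr6 with Ccl20 and Cx3cr1 with Cx3cl1, and neither gene in 12. Pairs share genes, so these counts are not independent, and no correlation was computed over 4 groups.

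**Figure D3:**
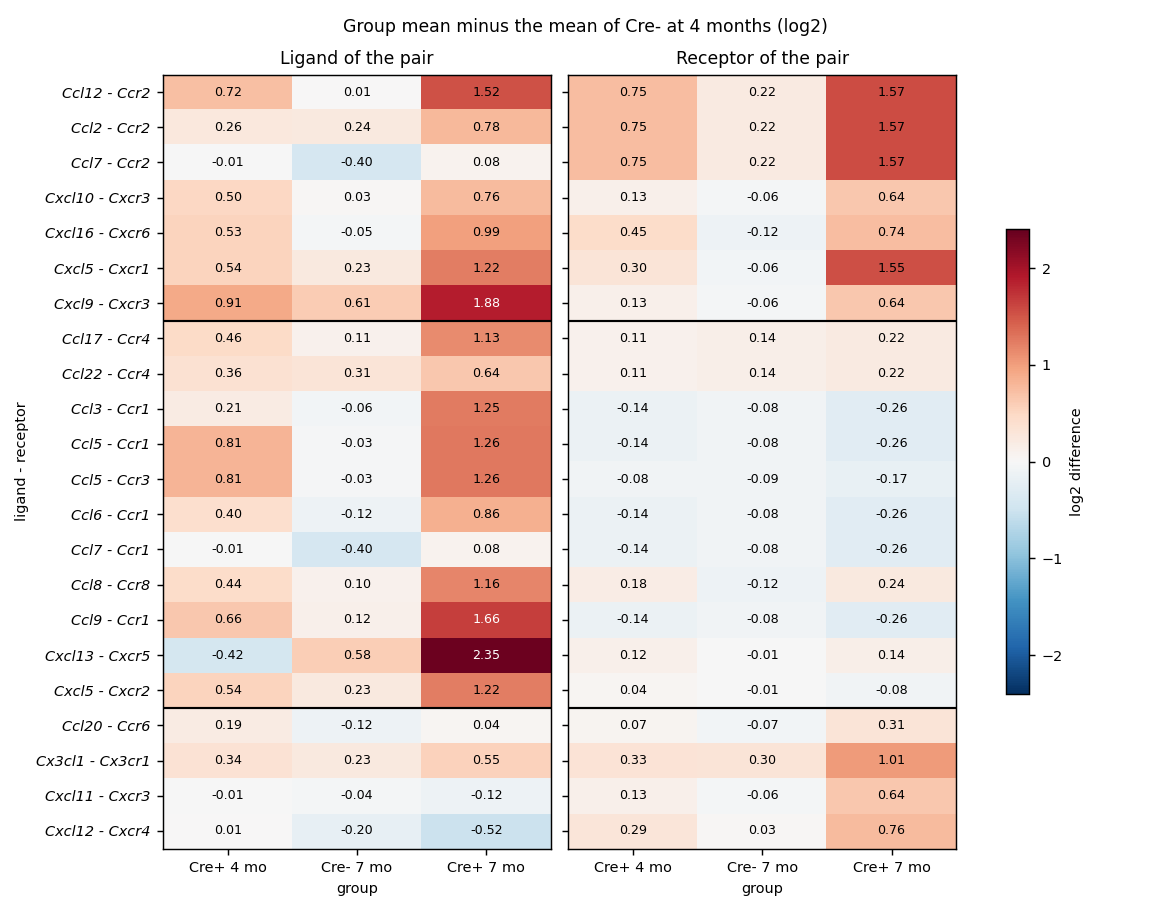
Group mean minus the mean of Cre- kidneys at 4 months, in log2 units, for the ligand (left) and the receptor (right) of the 22 pairs with a gene called at 7 months; black lines separate pairs with both genes called (top), the ligand alone and the receptor alone (bottom). In the top block the receptor column for Cre+ at 7 months reads from 0.64 for Cxcr3 to 1.57 for Ccr2, and in the middle block from -0.26 for Ccr1 to 0.24 for Ccr8.

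All 4 group means were under 4 for 14 members (28%, beside 31.4% of all genes): the ligands Ccl1, Ccl24, Ccl26, Cxcl2, Cxcl3 and Cxcl15 and the receptors Ccr1, Ccr1l1, Ccr3, Ccr4, Ccr6, Ccr8, Ccr9 and Ccr10. These were 6 of 33 ligands and 8 of 17 receptors. No detection p-values come with the table, so a dim value does not show absence of the RNA, and fold changes near background can be compressed. Ccr6 was the dim member that passed a test. A further 8 members were under 4 in both Cre- groups but not in every group, Ccl2, Ccl8, Ccl12, Ccl17, Cxcl1, Cxcl5, Cxcr6 and Xcr1, and 6 of them were called at 7 months, so that their folds may understate the change. In the receptor cluster of Cxcr6, Xcr1, Ccr1, Ccr1l1, Ccr3 and Ccr2 in gene order, 2 of 6 genes rose at 7 months, Cxcr6 and Ccr2. The share was 44% over all members and 11.7% over all genes. Ccr1l1 is a close copy of Ccr1, and Ccl27a, with means of 5.78, 5.58, 5.72 and 5.62, has near-identical copies in the mouse genome, so that these values are uncertain.

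With age, members were called in Cre+ kidneys and not in Cre- kidneys, which had 3 arrays at 7 months. The interaction, which tests that contrast directly, passed as higher for 2 of 50 members (4%), Ccl3 and Cxcl13, against 0.96% of all genes. For the other members an age change particular to Cre+ kidneys was not shown. From 4 to 7 months 14 members rose in Cre+ kidneys (28%) and none fell, against 4.12% of all genes higher and 6.71% lower, and quantile normalization gave 1325 higher and 1107 lower over all genes in place of 914 and 1488. In Cre- kidneys limma called no member, with 3 at unadjusted p under 0.05 and none called by any alternative fit, against 0.00451% of all genes (1 gene) higher. The 14 were 10 ligands and 4 receptors, and 13 of them were also called against the controls at 7 months, a comparison that shares the 7-month Cre+ arrays. Cxcl13 rose most, by 2.77 (SE 0.321, 6.80-fold, adjusted p = 5.6e-05), followed by Cxcr1 at 1.25 (adjusted p = 0.045) and Ccl3 at 1.05 (adjusted p = 0.00018). Of the other ligands Ccl9 rose by 1.01, Cxcl9 by 0.97, Ccl12 by 0.80, Ccl8 by 0.72, Cxcl5 by 0.68, Ccl17 by 0.67, Cxcl1 by 0.51 and Cxcl16 by 0.45. The other receptors were Ccr2 at 0.82, Cxcr3 at 0.51 and Cxcr4 at 0.47. Cxcl1, a neutrophil attractant, was the exception. Its means were 3.83, 3.72, 3.95 and 4.23, and it passed the age test (SE 0.125, adjusted p = 0.016) but not the Cre test. The count of 14 became 9 without Cre+ replicate 2 at 7 months, and Cxcr1 moved to 0.76 (adjusted p = 0.10) without Cre+ replicate 3 at 7 months. The other 9 of the 22 called at 7 months did not pass the age test. Their differences were 0.52 for Ccl2, 0.09 for Ccl7, 0.28 for Ccl22 and 0.24 for Ccr6, and lay between 0.26 and 0.46 for Ccl5, Ccl6, Cxcl10, Ccr7 and Cxcr6.

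The genes that chemokine receptors signal through rose at 7 months for 14 of 25 listed genes, with 1 lower (median 0.47), and for 3 at 4 months. They included Dock2, the Rac activator of migrating leukocytes, by 1.81 (SE 0.153, adjusted p = 3.2e-07), its partner Elmo1 by 1.16 (SE 0.132, adjusted p = 7e-06), Vav1 by 1.42 and Pik3cg by 1.35. Of 9 chemokine genes outside the member rule, such as the atypical receptors, Cx3cr1 was the 1 called. NF-kB subunits and feedback inhibitors rose for 11 of 15 genes with 1 lower (median 0.76), including Tnfaip3 (A20) by 1.32 (SE 0.118, adjusted p = 5.2e-07) and Rel by 1.34 (SE 0.158, adjusted p = 9.8e-06). Interferon-induced genes rose for 8 of 11 (median 0.68), including Irf7 by 1.16 and Irf9 by 0.84. Of 18 cytokines that induce chemokines, 4 rose (Ltb by 1.24, Csf1 by 0.94, Il1b by 1.21 and Il34 by 0.93) and 1 fell, and 9 were dim in all groups. The background over all genes at 7 months is the 11.7% higher and 10.8% lower given above. It applies to these lists and to the adhesion, protease and cell marker lists. The lists were not tested as sets.

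Molecules that act after the chemokine signal also moved. Of 11 leukocyte adhesion genes 8 rose at 7 months (median 0.88). Vcam1, the endothelial and tubular ligand of the integrin Itga4, rose by 3.22 (SE 0.219, 9.33-fold, adjusted p = 2.8e-08), and Icam1 by 1.03, Itgb2 by 1.67 and Itga4 by 1.39. Of 12 proteases that cleave chemokines 6 rose and 1 fell (median 0.18), with Mmp7, an epithelial protease, at 3.99 (SE 0.302, 15.9-fold, adjusted p = 1e-07), Mmp14 at 1.99 and Mmp2 at 1.45.

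Other cell markers gave the surrounding tissue. Kidney tubule markers fell for 4 of 7 genes at 7 months (median -0.43), with a summed level of 14.08 to 14.30, 14 to 14.20, 14.14 to 14.30 and 13.60 to 13.82 in the 4 groups, and both podocyte markers measured fell. Urothelial markers rose for all 3 genes, and fibroblast markers for 2 of 5, Col1a1 by 2.43 and Dcn by 1.05. Of 5 endothelial markers 1 was called lower, Kdr by 0.51 (median of the list -0.28). Of 4 lymphatic markers 1 was called higher, Pdpn by 0.42, while the median of the list was -0.08. Over all genes 10.8% were called lower and 11.7% higher at 7 months, so neither count shows a shift of its list. None of 6 eosinophil and mast cell or 4 platelet markers was called. The part of these tissue changes in the chemokine values was not tested.

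**Figure D4:**
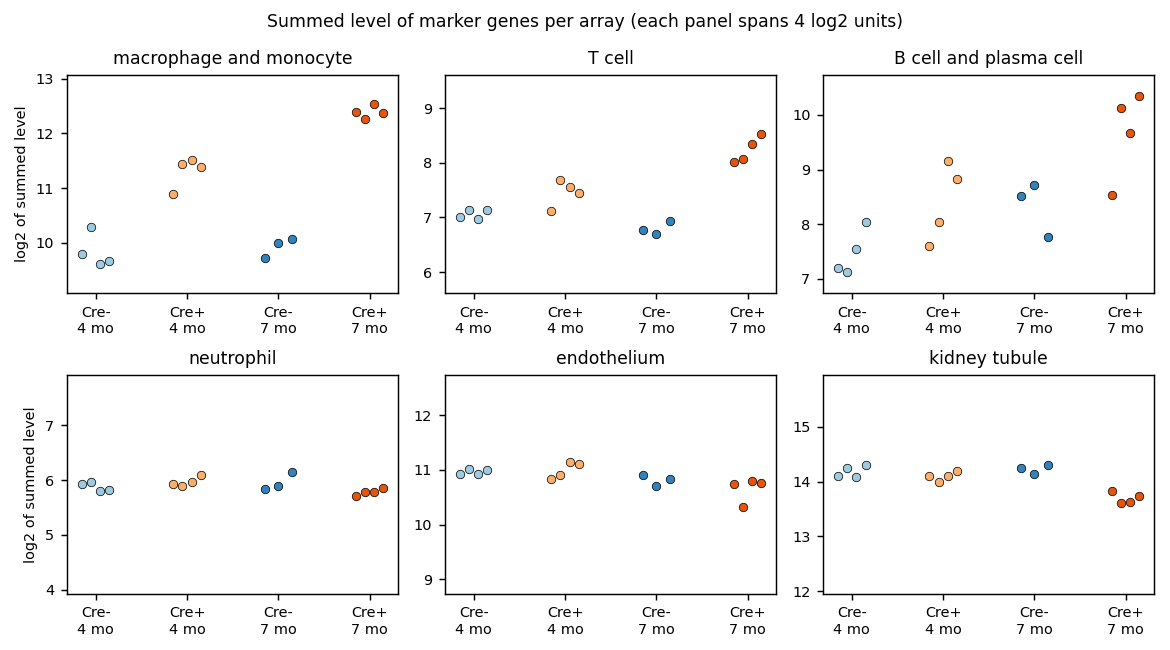
Log2 of the summed linear level of marker genes on each array (points), by group, for 6 cell types; each panel spans 4 log2 units. Macrophage and T cell sums of Cre+ kidneys at 7 months (12.25 to 12.54 and 8.01 to 8.52) lie above all other arrays, tubule sums of that group (13.60 to 13.82) lie below, and neutrophil sums of all arrays lie between 5.71 and 6.14.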

How the data were processed

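Total RNA from 15 flash-frozen kidneys was hybridised to 15 arrays, per the labels' protocols. Deposited values are log2 units, and per the submitters' processing notes the authors made them with Partek 6.6 and RMA (background correction, normalization between arrays, probe summary). A range of 1.04 to 13.1 is what showed the scale. The array's genome build: not given in the sources used here. Of 41345 probe sets 23521 had 1 gene symbol, 1814 several (33 of them with a chemokine symbol) and 16010 none, and 23328 of the single-symbol probe sets matched the RefSeq gene table of GRCm38.p6. For 1082 genes with several probe sets, 1 of them a member (Ccl27a), the probe set of highest mean was kept, which left 22180 genes with no filter on dim ones. Arrays measure hybridisation, so their number limits the precision.

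Groups came from the titles. limma 3.58.1 in R 4.3.3 fitted 4 group means to all arrays (lmFit and eBayes, two-sided), with Benjamini-Hochberg adjustment over all genes, a threshold of 0.05 and 5 contrasts. Differences are Cre+ minus Cre- or 7 minus 4 months, in log2 units, and errors are standard errors of the fit. Marker sums are the log2 of summed linear values. The fit was tested on simulated data. Arrays are separate mice by the design text, so p-values rest on differences between animals. Members, gene lists, ligand-receptor pairs and motifs were chosen with earlier results of these data known. Not every gene that the naming rule covers is reported here. Named with values were members called in any contrast, their partners, members of highest mean and dim members, with every array for the 12 largest called changes and for Cxcl12, and from each list up to 4 called genes of smallest p. Alternatives were a filter on dim genes (3 or more arrays over the median of all genes), median centring, quantile normalization, a trended robust variance, a plain linear model, fits of 2 groups only, the replicate number as a block, the Y-linked level as a covariate, averaging a gene's probe sets and leaving out each array. Tables and figures were made with Python 3.11.15 and pandas 2.3.3.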

Additional observations from a re-analysis of the deposited data

Results flagged for a closer look

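Within groups of 4 arrays, 10 of 150 gene-by-group sets held an array far from the other 3 (by Dixon's ratio), where chance flags about 5%. Among members called at 7 months these were Ccl3 in Cre+ replicate 1 at 7 months (5.71, the others 5.27 to 5.31), Ccl17 in Cre+ replicate 4 at 7 months (5.06, the others 4.80 to 4.83), Ccl2 in Cre+ replicate 3 at 7 months (3.72, the others 4.34 to 4.39) and Ccl9 in Cre+ replicate 1 at 4 months (5.67, the others 6.20 to 6.28). In Cre- kidneys at 4 months they were Cxcr4 in replicate 2 (6.21, the others 5.85 to 5.87) and Cxcr6 in replicate 1 (3.22, the others 3.68 to 3.70). In members not called against the controls they were Ccr10 in Cre+ replicate 1 at 7 months (3.92, the others 3.45 to 3.48), Cxcr5 in Cre+ replicate 1 at 4 months (5.25, the others 5.05 to 5.06), and Cxcl15 (3.71, the others 3.36 to 3.39) and Cxcl2 (3.92, the others 3.38 to 3.40) in Cre+ replicate 3 at 4 months.

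The Cre effect differed between the ages for 2 members by the interaction test in limma. For Ccl3 it was larger at 7 months by 1.10 (adjusted p = 0.011) and for Cxcl13 by 2.18 (adjusted p = 0.023). Every Cre+ kidney at 7 months was above every control for both genes.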

How the results depend on the processing

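No called member changed direction in any alternative. In every alternative that tested them, 18 of 22 members kept their call at 7 months, 1 of 6 at 4 months (Cxcl16), Ccl3 of the 2 interactions and 7 of 14 with age in Cre+ kidneys. The filter on dim genes removed 9 of the 22 and 5 of the 14 untested, among them 5 of the 18 and 2 of the 7, and the 13 and 9 it tested kept their calls. The count of higher members at 4 months, 6, was 2 with the plain linear model and 1 to 10 without single arrays, and at 7 months, 22, it was 15 to 24 over the fits and 19 to 21 without single arrays. The 2 interactions became 1 with the trended robust variance and 1 with the plain model, and 1 to 2 without single arrays. With the filter, median centring or the block, Ccl9 joined them. With age in Cre+ kidneys, 14 higher members became 9 with the filter, which left 23 of 50 members to test, and 9 to 14 without single arrays. The 0 lower members became 1 with median centring, 1 with the plain model and 1 with the replicate block (Cxcl15 each time), 2 with the Y-linked covariate (Cxcl12 and Cxcl15) and 0 to 1 without single arrays. Except for the filter, the cause was not tested. Cx3cl1 and Cxcl14 passed at 7 months in some alternatives (adjusted p of 0.031 and 0.048 with the filter). Same-numbered arrays correlated from -0.47 to 0.30 and others from -0.47 to 0.55 in their deviations from group means. At 4 months, Cre- and Cre+ arrays correlated positively where their Y-linked levels matched (0.19 between the replicates 1). They correlated negatively where these levels differed (-0.27 between the replicates 2). The correlations therefore cannot decide whether the replicate numbers pair the mice. The replicate block gave 7 higher members at 4 months and 21 at 7 months. Over all genes, 178 lower calls at 4 months became 511 with centring, 287 with quantile normalization, 268 with the filter, 324 with the Y-linked covariate and 72 to 197 without single arrays, and 606 higher calls became 370 to 904. At 7 months 2597 higher and 2394 lower calls became 2337 and 3609 with centring. The interaction's 213 higher and 262 lower became 90 and 137 with the plain model, 359 and 276 with quantile normalization, 321 and 273 with centring, 301 and 433 with the covariate, and 108 to 228 and 117 to 288 without single arrays. With age in Cre+ kidneys 914 and 1488 became 604 to 817 and 956 to 1339 without single arrays. The 1 gene called with age in Cre- kidneys became 0 with the plain model, with 2 groups, with the block and without any single array. Differences within the high and within the low Y-linked arrays, a split chosen after the data were seen, were positive in all 12 comparisons for the members called at 4 months and all 44 at 7 months. Values near background limit 14 dim members.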
